A study of Mus musculus with 202 samples.

Results

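The mouse orthologues of 10 genes at loci associated with polycystic ovary syndrome in humans were followed through the oocytes of 3 generations: Yap1, Gata4, Hmga2, Tox3, Erbb4, Dennd1a, Thada, Arl14ep, Krr1 and Mapre1. They are 10 of the 23995 gene symbols in the count table, taken by name. The study sequenced the polyadenylated RNA of individual mouse oocytes arrested in metaphase II, the stage at which an egg awaits fertilisation, in the C57Bl/6J strain by Smart-seq2, a full-length method without molecular identifiers. Each of the 202 libraries is 1 oocyte, and 157 of them, with at least 100000 gene counts and 4000 genes detected, were kept.

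The 11 groups are named by generation and by the exposure of the F0 female that founded the lineage. She received a control diet (CD) or a high fat and high sugar diet (HFHS), with vehicle (Veh) or dihydrotestosterone (DHT), a potent androgen. F1 held CD+Veh (10 kept oocytes), CD+DHT (8), HFHS+Veh (14) and HFHS+DHT (13). F2 held CD+Veh (16 oocytes of 4 animals), CD+DHT (25 of 5 animals), HFHS+Veh (20 of 4 animals) and HFHS+DHT (5, no animal named). F3 held CD+Veh (20), CD+DHT (13) and HFHS+Veh (13 oocytes of animals 22 and 26). A further F3 HFHS+Veh animal, 25, had no kept oocyte, since its oocytes had only 1639 to 13586 gene counts. The number before the point in a title was read as the animal. No ages are given in the labels.

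Titles and characteristics contradicted each other for 36 of the 202 oocytes. All 15 titled F1 HFHS+Veh and all 5 titled F2 HFHS+DHT carried the opposite hormone in their characteristics. Animal 10 and 3 oocytes of animal 5, titled F2 HFHS+Veh, carried F3, and the 8 oocytes of animal 22, titled F3 HFHS+Veh, carried F2. Titles were used, and the main results that rest on these oocytes are also given without them where oocytes are left. One kept oocyte, F3 CD+Veh oocyte 21, stood apart on its markers. Its 13 oocyte markers summed to 210 CPM (counts of a gene scaled to 1000000 gene counts per library), against 21559 CPM in the median kept oocyte. Its cumulus and granulosa markers summed to 66441 CPM.

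The 13 oocyte markers, Gdf9, Zp3 and H1foo among them, had a median above 0 over the 157 kept oocytes. Of 30 cumulus and granulosa markers, 29 had a count somewhere but only 9 had a median above 0, led by Serpine2 at 836 CPM. Spp1 followed at 89.4 CPM, Cyp19a1 at 86.7 CPM, with a count in 154 oocytes, and Nr5a2 at 10.36 CPM. The rest of those above 0 had medians from 0.235 (Timp1) to 5.77 CPM (Mgst1). Among the others, Amh, Fshr, Foxl2, Inha and Has2 had medians of 0. The summed cumulus list had group medians of 781 to 2444 CPM in F1, 789 to 952 CPM in F2 and 1670 to 3276 CPM in F3. Gene counts per kept oocyte ran from 133654 to 16359078. The ERCC spike-in share of counts also differed by generation, with group medians of 0.467% to 0.510% in F1, 0.0857% to 0.116% in F2 and 0.298% to 0.381% in F3. In F2 HFHS+Veh, oocyte 2 of animal 4 had a share of 3.46% and the fewest genes detected of its group (5624). It held 1229 CPM of Yap1, 205 CPM of Dennd1a, 2.35 CPM of Arl14ep and 0 CPM of Tox3 and Krr1. The part of library quality in these values was not tested. The labels name no library batch, so generation and library preparation cannot be told apart.

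These genes do not form 1 pathway. Yap1 is the coactivator that the Hippo kinases hold out of the nucleus, Gata4 a zinc finger transcription factor of gonadal somatic cells, Hmga2 an architectural chromatin protein repressed by let-7, and Tox3 a high mobility group box nuclear protein. Erbb4 is a receptor for neuregulins, and Dennd1a activates Rab35 in clathrin-dependent endocytosis. Thada is linked to transfer RNA methylation and to calcium pumps, Arl14ep encodes an effector of the small GTPase ARL14 and neighbours Fshb, Krr1 is a factor of the small-subunit processome that builds ribosomes, and Mapre1 encodes EB1, which tracks growing microtubule ends. A metaphase II oocyte is transcriptionally silent, so its messages are those stored during growth.

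Promoters were found in RefSeq's table (build GRCm38.p6) for 9 of the 10 genes. Those of Arl14ep, Mapre1 and Yap1 are shown because these genes differed most between generations or varied together among oocytes. Each stretch is the 150 bases that end just before the outermost annotated transcript start, 5′ to 3′ on the gene's strand, with searched motifs in capitals. The stretches lie at chr2:106974425-106974574 (Arl14ep, minus strand, first of 3 starts), chr2:153741124-153741273 (Mapre1, plus strand) and chr9:8004597-8004746 (Yap1, minus strand).
Arl14ep: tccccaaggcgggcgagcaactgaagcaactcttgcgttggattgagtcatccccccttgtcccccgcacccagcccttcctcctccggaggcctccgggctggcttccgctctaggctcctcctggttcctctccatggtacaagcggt
Mapre1: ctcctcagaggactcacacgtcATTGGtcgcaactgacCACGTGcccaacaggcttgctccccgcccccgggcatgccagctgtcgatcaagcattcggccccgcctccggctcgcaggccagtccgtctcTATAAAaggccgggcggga
Yap1: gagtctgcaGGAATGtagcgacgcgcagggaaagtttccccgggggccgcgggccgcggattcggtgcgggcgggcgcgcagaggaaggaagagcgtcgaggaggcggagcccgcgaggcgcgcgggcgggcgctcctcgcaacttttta
The capitals in Mapre1 mark a CCAAT box on the other strand (ATTGG), an E-box (CACGTG) and a TATA box (TATAAA), at 141, 125 and 32 bases before the RefSeq start. The capitals in Yap1 mark GGAATG, the core of the TEAD site through which Yap1 itself acts on its targets, 141 bases before its start. Yap1 also held CACGTG 163 bases before the start, outside the stretch shown, and the Arl14ep stretch holds none of the searched letters.

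Motifs were searched on both strands of the 250 bases before 32851 RefSeq starts. The androgen response half-site AGAACA was in 16.1% of all of them and in none of the 11 starts of these genes, and the full androgen response element was in 0.00913% of all and in none of the 11. Of the NOBOX motifs, TAATTG (7.17% of all) was absent from these windows and TAGTTG (5.69%) was before the third start of Arl14ep. CACGTG was in 6.02% of all, CAGGTG in 17.22% (Tox3 among these genes), AGATAA in 9.99% (none of these genes) and GGAATG in 12.6% (Yap1 and Krr1). TATAAA was in 12.4% and ATTGG in 33.8% of all, the latter in Mapre1, Thada and the first start of Arl14ep. A match describes letters in a window, not a bound site.

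On the deposited RPKM scale, which divides by gene length and so allows genes to be compared, 3 of these genes stood among the abundant messages of the oocyte. The median RPKM over the 157 oocytes was 82.8 for Mapre1, 74.0 for Yap1 and 49.0 for Tox3. Their medians exceeded those of 96.6%, 96.2% and 94.6% of all genes. Arl14ep followed at 28.4 and Krr1 at 10.06. Gata4 (6.09), Hmga2 (4.97) and Dennd1a (4.21) were lower, and Thada was at 1.60. Group medians of Mapre1 (67.4 to 124) and Yap1 (40.8 to 95.3) overlapped. So did those of Gata4 (3.22 to 10.23), Hmga2 (3.70 to 7.295) and Dennd1a (0.976 to 6.197). These are ranges over groups, and the order of the genes within single groups was not compared. Erbb4 had a median of 0.

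**Figure D1:**
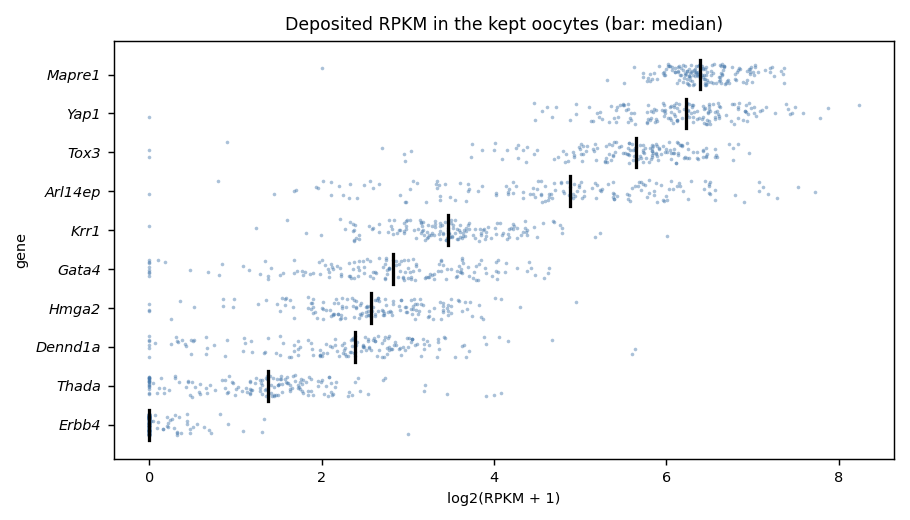
Deposited RPKM of the 10 genes in the 157 kept oocytes on a log2(RPKM + 1) axis, 1 point per oocyte and a bar at the median. Mapre1, Yap1 and Tox3 have the highest medians (82.8, 74.0 and 49.0 RPKM) and Erbb4 sits at 0.

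Detection followed the level. Mapre1 had a count in all 157 kept oocytes and Thada in 139. With every oocyte thinned to 100000 counts, Mapre1 remained detected in 157, Arl14ep in 152, Gata4 and Hmga2 in 121 each, Dennd1a in 118 and Thada in 104. Erbb4 had a count in 36 oocytes and, after thinning, in 6. Its pooled level is the group's summed counts over its summed gene counts. It was at most 2.42 CPM (exact Poisson 95% interval 2.04 to 2.85, counting error only), in F3 CD+Veh, where 2 of 20 oocytes held counts. These were oocyte 7, at 29.7 CPM, and oocyte 23, at 1.16 CPM, so that level rests mostly on oocyte 7. Erbb4 was therefore left out of the 9 genes compared by pooled level, which needed a mean of 5 CPM over the 11 groups. Reads have no molecular identifiers, so intervals cover the counting error of reads only, not of molecules or oocytes.

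The genes known to work with each of these were read from lists. Of 19 other Hippo genes, 8 were measured, with Stk3 (49.6 RPKM), Mob1b (16.5), Sav1 (9.201) and Nf2 (6.80) highest. Of 13 ErbB ligands and receptors, 5 were measured: Nrg4 (15.9 RPKM), Egf (7.72), Nrg1 (5.13), Egfr (2.68) and Nrg3 (1.61), so the neuregulin messages were present where Erbb4 was near 0. Of 7 other GATA genes and cofactors only Gata3 was measured, at 22.304 RPKM against 6.09 for Gata4. Among the let-7 axis genes, 5 of 7 were measured, with Igf2bp2 (90.9), Dicer1 (55.3), Igf2bp3 (53.6) and Lin28a (7.91) highest.

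Of the microtubule plus end genes 7 of 10 were measured, with Slain2 at 56.8 RPKM, Clasp2 at 53.3, Ckap5 at 49.4 and Clip1 at 18.7, each below the 82.8 of Mapre1. Of the small-subunit processome 20 of 25 were measured, with Mphosph10 (114 RPKM), Utp18 (100.2), Nop58 (55.5) and Nop56 (43.3) highest. Krr1, at 10.06, lay below these but above Nop14 (9.71), Emg1 (8.58), Rcl1 (6.48), Utp6 (4.29) and Heatr1 (2.05). The DENN and Rab list had 5 of 8 measured, with Cltc at 27.4, Rab35, the GTPase that Dennd1a activates, at 16.9, Ap2b1 at 4.18 and Ap2m1 at 1.696. Tox (7.54 RPKM) was the only other TOX gene measured of 3. Of 5 Thada partners, only Atp2a2, a calcium pump of the endoplasmic reticulum, was measured, at 92.3 RPKM. Of 15 genes near other loci of the syndrome, 6 were measured, with Rad50 at 57.3, Fancc at 16.3, Suox at 4.72 and Irf1 at 3.42. Fshr and Lhcgr, which granulosa cells express, had a count in 22 and 6 oocytes.

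The first comparison asks whether androgen in the founding female left a mark on these genes in F2, where animals are named. Counts were summed per animal and tested with edgeR's quasi-likelihood test in 1 fit over 13 animals. None of the 9 genes tested passed in CD+DHT against CD+Veh, where 0% of 11962 genes passed an adjusted p of 0.05. Their log2 folds ran from -0.42 (Thada, SE 0.47) to 0.12 (Mapre1, SE 0.16), with every adjusted p at 1.0. Mapre1 had 576, 603, 538 and 602 CPM in the 4 CD+Veh animals and 569, 674, 616, 453 and 577 CPM in the 5 CD+DHT animals. The groups overlapped, at 580 ± 30.3 CPM (SD, n = 4) against 578 ± 81.1 CPM (SD, n = 5). Thada, the lowest of the 9 per length, had 18.8, 18.8, 9.82 and 7.89 CPM in CD+Veh and 13.43, 13.7, 6.61, 1.15 and 12.2 CPM in CD+DHT, where animal 9 was lowest.

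In HFHS+Veh against CD+Veh 0% of genes passed, and the 9 log2 folds ran from -0.22 (Arl14ep, SE 0.50) to 0.40 (Thada, SE 0.50). In CD+DHT against HFHS+Veh 0% passed, and the folds ran from -0.82 (Thada, SE 0.47) to 0.09 (Arl14ep, SE 0.47). Without the oocytes with contradictory labels, which removes animal 10 and 3 oocytes of animal 5, the fold of Arl14ep was -0.84 in HFHS+Veh against CD+Veh and 0.72 in CD+DHT against HFHS+Veh, and that of Krr1 was -0.59 and 0.45. Tox3 was then at -0.36 and 0.28, and none of these passed. Over all genes, an unadjusted p under 0.05 was reached by 220, 118 and 125 genes in CD+DHT against CD+Veh, HFHS+Veh against CD+Veh and CD+DHT against HFHS+Veh, and by none of the 9 genes (0 in each). DESeq2 called 1 gene in each comparison and limma 0.

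For Arl14ep and Yap1, animals of 1 F2 group lay further apart than the group means. In CD+Veh, Arl14ep was at 87.7 and 66.6 CPM in animals 2 and 3 but at 210 and 191 CPM in animals 13 and 14. Yap1 ran the other way, at 551 and 648 CPM in animals 2 and 3 and 238 and 270 CPM in animals 13 and 14. HFHS+Veh animals fell into like pairs: Arl14ep was at 66.8 and 77.1 CPM in animals 4 and 5 and at 201 and 122 CPM in animals 10 and 19, and Yap1 at 538 and 570 CPM against 338 and 313 CPM. Gata4 was also higher in animals 4 and 5 (38.7 and 53.5 CPM) than in animals 10 and 19 (22.55 and 21.8 CPM). The number of genes detected moved with this split. Its animal medians were 11403 and 11993 genes in animals 2 and 3, 9817 and 9241 in animals 13 and 14, 11347 and 11460 in animals 4 and 5, and 8447 and 10749 in animals 10 and 19. Among CD+DHT animals, animal 9 had the highest Arl14ep (188 CPM) and the fewest genes (7771). Animals 6, 7, 8 and 17 had 106, 88.0, 113 and 102 CPM of Arl14ep. Animal 8 had nearly as few genes (7956) as animal 9. Yap1 was at 355 CPM in animal 9 and was lowest in animal 17 (275 CPM), so it did not mirror Arl14ep in this group. The part of library complexity in these differences was not tested.

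**Figure D2:**
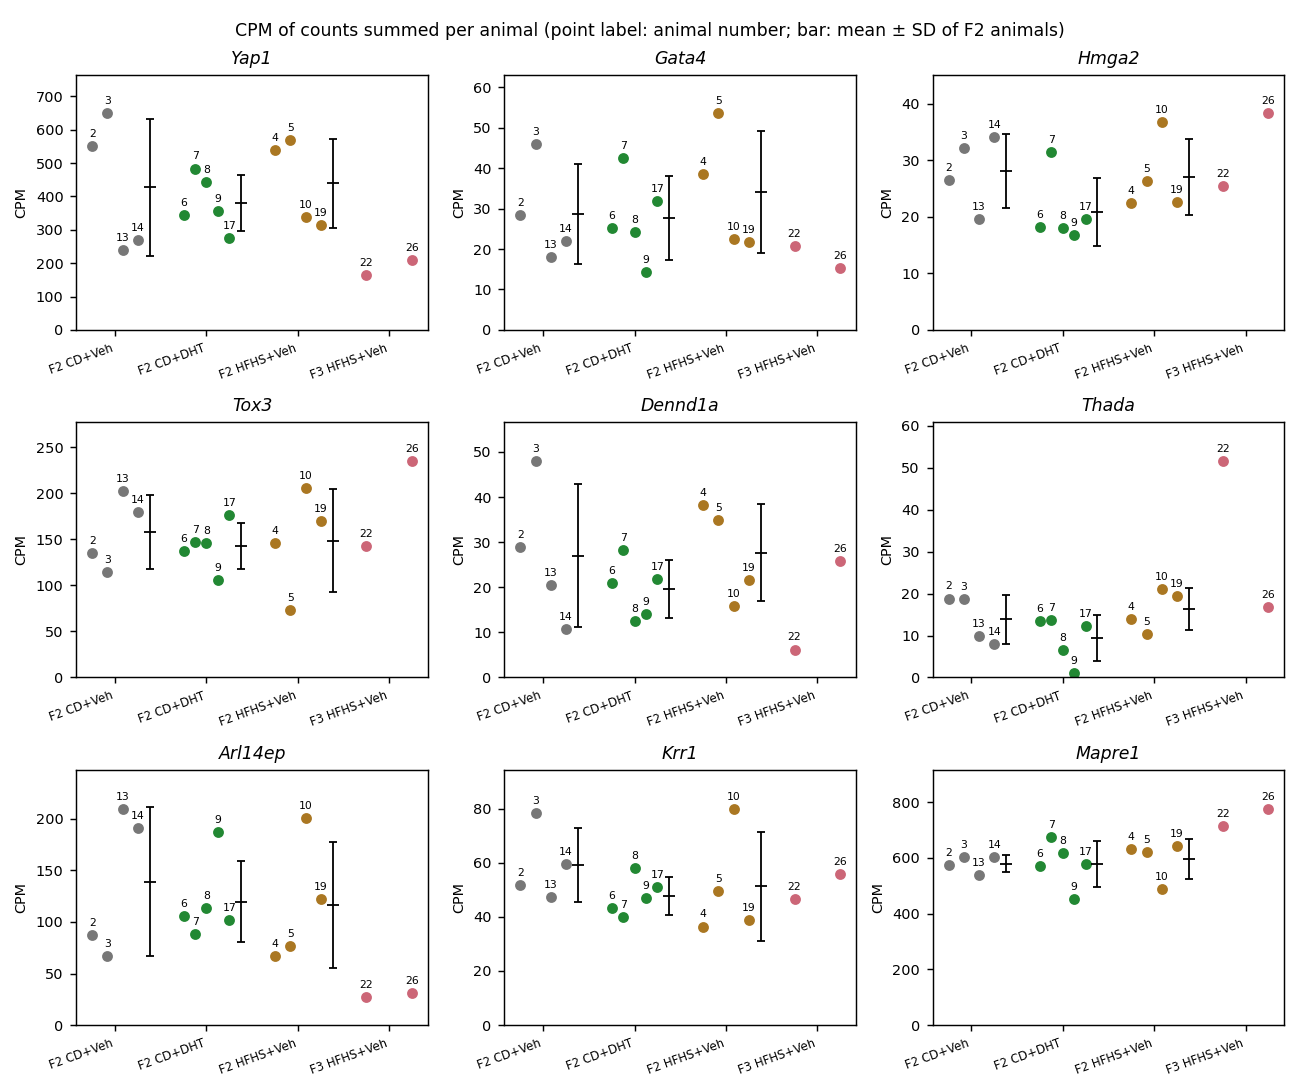
CPM of counts summed per animal for the 9 measured genes, with the F2 lineages HFHS+Veh, CD+DHT and CD+Veh and the F3 lineage HFHS+Veh on the x axis, animal numbers beside the points, and mean ± SD of F2 animals. Arl14ep splits the CD+Veh animals into 66.6 to 87.7 and 191 to 210 CPM, and both F3 animals lie below every F2 animal.

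In F1 no animals are named, so each group is 1 sample and no test was made. Differences are log2 ratios of pooled CPM, set beside the SD between F2 animals of the same group. In CD+DHT against CD+Veh, 16.3% of the 7280 measured genes were at least 1.5-fold apart, and so were 2 of the 9 orthologues, Yap1 and Thada. Yap1 had 360 CPM pooled in CD+DHT (oocytes from 104 to 501, median 361) and 229 CPM in CD+Veh (177 to 727, median 275), a log2 ratio of 0.65, 1.29 times the SD between F2 animals. The oocyte ranges overlapped. The highest CD+Veh values, 727 and 393 CPM, were in oocytes 8 and 7. Spike-in counts made up 4.33% and 2.66% of those libraries, and their part in the ratio was not tested. Thada had 18.1 against 11.4 CPM (log2 ratio 0.67, 0.782 times the SD), but its oocyte medians were 12.8 and 12.01 CPM. With 1 oocyte left out at a time the ratio of Yap1 ran from 0.54 to 0.70 and that of Thada from 0.16 (without CD+DHT oocyte 6) to 0.87. Both fell short of 1.5-fold when each oocyte had equal weight (0.05 for Yap1 and 0.26 for Thada) and with oocyte medians (0.39 and 0.09). The median log2 ratio of the 9 genes was 0.15 against -0.01 for all measured genes.

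In HFHS+Veh against CD+Veh 11% of genes and 0 of the 9 were past 1.5-fold, with a median log2 ratio of 0.13. In HFHS+DHT against HFHS+Veh the 9 ratios ran from -0.11 (Thada) to 0.45 (Dennd1a), with a median of 0.32 over the 9 and -0.04 over all measured genes. Both rest on the F1 HFHS+Veh oocytes whose labels contradict each other, all 15 of them, so no oocyte of that group is left without them. In HFHS+DHT against CD+DHT 16.7% of genes and 2 of the 9 were past 1.5-fold. Arl14ep had 256 against 162 CPM pooled (log2 ratio 0.66, 1.03 times the SD), with oocytes from 74.4 to 586 and from 118 to 428 CPM. Hmga2 had 23.5 against 15.3 CPM (log2 ratio 0.62), with oocyte medians of 17.9 and 17.6 CPM. With equal weight for each oocyte the ratio of Arl14ep was 0.68 and that of Hmga2 0.21. The ratio of Hmga2 was 0.26 without HFHS+DHT oocyte 6, and that of Arl14ep ran from 0.51 to 0.90 with 1 oocyte left out at a time.

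In F3, CD+DHT against CD+Veh had 29% of genes past 1.5-fold by pooled level and 0 of the 9. For Yap1 this rested on the pooling. Its log2 ratio was 0.35 pooled, 0.80 with equal weight for each oocyte and 0.94 with oocyte medians. Thada was at 0.21, -0.79 and 1.34 in the same order. The largest of the 9 pooled ratios was that of Hmga2, 29.9 against 20.4 CPM (log2 ratio 0.55, 1.63 times the SD), with oocyte medians of 23.8 and 16.4 CPM. It was 0.04 without CD+DHT oocyte 15 and 0.97 without CD+DHT oocyte 14. Pooled levels of Dennd1a were 18.5 and 13.41 CPM, but oocyte medians were 19.46 and 4.12 CPM, and 2 of 20 CD+Veh oocytes had no count. In HFHS+Veh against CD+Veh 30.9% of genes and 2 of the 9 were past 1.5-fold. Hmga2 had 31.3 against 20.4 CPM (log2 ratio 0.62) and Thada 35.8 against 21.02 CPM (0.77). With equal weight for each oocyte the ratio of Hmga2 was 0.63, and that of Thada was 0.43, short of 1.5-fold, while oocyte medians gave 2.46 for Thada. The ratio of Hmga2 was 0.21 without oocyte 1 of animal 26, and that of Thada was -0.12 without oocyte 7 of animal 22. Without animal 22, whose labels contradict each other, the ratio of Thada was -0.33. Animal 22 had 51.6 CPM of Thada and animal 26 had 16.7 CPM. Mapre1 had 744 against 928 CPM (log2 ratio -0.32, 1.83 times the SD). Leaving out the F3 CD+Veh oocyte that stood apart changed the pooled Hmga2 of its group from 20.4 to 20.5 CPM, Thada from 21.02 to 21.13 and Mapre1 from 928 to 932 CPM. Of the 10 orthologues, Krr1 was highest in that oocyte, at 342 CPM, and without it its group's highest oocyte was 169 CPM.

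**Figure D3:**
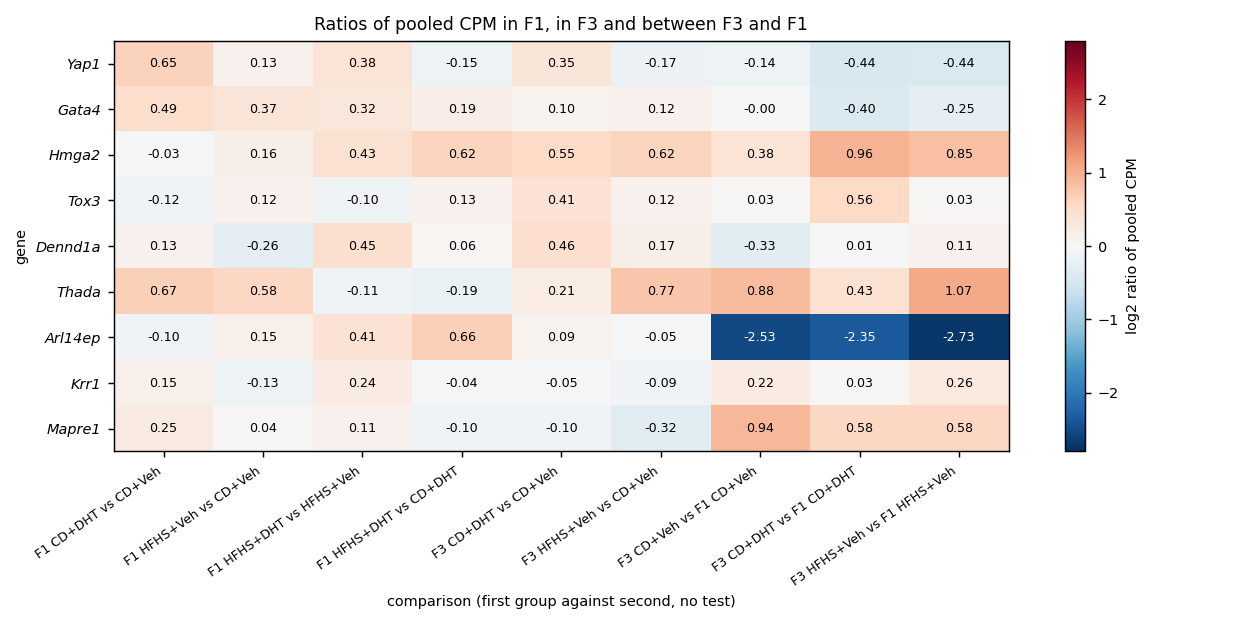
Log2 ratios of pooled CPM for the 9 measured genes (rows) in the 9 comparisons without a test (columns), red where the first group is higher and blue where it is lower. Within F1 and F3 the ratios lie between -0.32 and 0.77, while Arl14ep stands at -2.53, -2.35 and -2.73 between F3 and F1.

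Generations were then compared within a lineage. This comparison was added after the data were seen. The pooled level of Arl14ep was lower in each later generation, at 162 to 256 CPM in the 4 F1 groups, 92.7 to 135 CPM in the 4 F2 groups and 29.0 to 31.8 CPM in the 3 F3 groups. Its oocyte medians overlapped between F1 groups (133 to 298 CPM) and F2 groups (82.3 to 153 CPM), and those of F3 groups (21.8 to 30.7 CPM) lay below both. In the CD+Veh lineage, Arl14ep ran from 28.9 to 458 CPM in F1 oocytes (median 133), from 49.9 to 294 in F2 (median 153) and from 6.46 to 93.0 in F3 (median 23.2). In CD+DHT it ran from 118 to 428 CPM in F1 (median 172), from 22.797 to 285 in F2 (median 104) and from 9.51 to 97.7 in F3 (median 30.7). In HFHS+Veh it ran from 80.4 to 675 CPM in F1 (median 212), from 2.35 to 297 in F2 (median 82.3) and from 0 to 56.0 in F3 (median 21.8). The lowest F2 value there was that of oocyte 2 of animal 4, and the next lowest was 36.8 CPM. No F3 oocyte of the HFHS+Veh or CD+DHT lineage reached the lowest F1 oocyte, while the CD+Veh ranges overlapped. The F1 HFHS+Veh values rest on oocytes whose labels contradict each other, as do those of animal 22 in F3, so no F3 against F1 value of this lineage could be computed without them.

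The log2 ratios of Arl14ep in F3 against F1 were -2.73 in HFHS+Veh, -2.53 in CD+Veh and -2.35 in CD+DHT. They were 4.22, 3.91 and 3.63 times the SD between F2 animals. Between F3 and F1, 65.4% of measured genes were past 1.5-fold in HFHS+Veh, 60.8% in CD+DHT and 60.8% in CD+Veh. Of the 9 orthologues 3 were (Arl14ep, Thada and Hmga2), 2 (Arl14ep and Hmga2) and 3 (Arl14ep, Mapre1 and Thada), so a difference of that size was the common case. Oocyte ranges that do not overlap were rarer: 6.96% of genes in HFHS+Veh, 4.02% in CD+DHT and 2.6% in CD+Veh. Of the 9 genes, 1 was apart in this way in HFHS+Veh (Arl14ep), 2 in CD+DHT (Arl14ep and Mapre1) and 0 in CD+Veh. Without the F3 CD+Veh oocyte that stood apart, Arl14ep in that group was 30.1 CPM pooled with a median of 24.05 CPM.

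**Figure D4:**
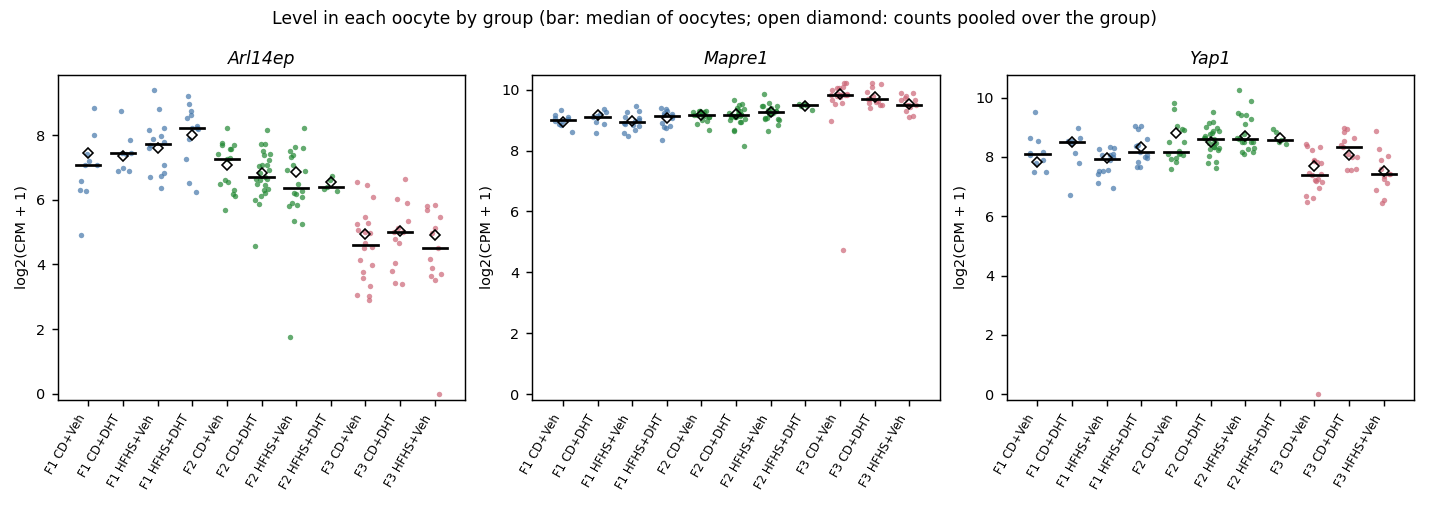
Level of Arl14ep, Mapre1 and Yap1 in each kept oocyte as log2(CPM + 1), by group and coloured by generation, with bars at oocyte medians and open diamonds at pooled levels. Arl14ep falls to 29.0 to 31.8 CPM pooled in F3, Mapre1 is at 744 to 928 CPM there against 485 to 578 CPM in F1, and the F3 CD+Veh oocyte that stands apart lies far below its group for Mapre1.

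Mapre1 moved the other way. Its pooled levels were 485 to 578 CPM in F1, 580 to 709 CPM in F2 and 744 to 928 CPM in F3, and the groups of the 3 generations did not overlap. F1 and F2 nearly touched, however, at 577.8 CPM in F1 CD+DHT and 579.5 CPM in F2 CD+Veh. Single F2 animals ran from 453 CPM (animal 9) to 674 CPM (animal 7), so F1 and F2 are not set apart. In CD+Veh oocytes it ran from 391 to 651 CPM in F1 (median 517) and from 25.82 to 1198 CPM in F3 (median 907). Without the oocyte that stood apart the lowest F3 CD+Veh value was 504 CPM. In CD+DHT it ran from 383 to 663 CPM in F1 (median 556) and from 671 to 1184 CPM in F3 (median 822), which do not overlap. In HFHS+Veh it ran from 357 to 710 CPM in F1 (median 492.5) and from 551 to 948 CPM in F3 (median 725). The log2 ratios were 0.94, 0.58 and 0.58, or 5.38, 3.36 and 3.32 times the SD between F2 animals, which was only 0.17 on the log2 scale for this gene.

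Of the others, Hmga2 had higher pooled levels in F3 than in F1, with log2 ratios of 0.96 in CD+DHT, 0.85 in HFHS+Veh and 0.38 in CD+Veh, and oocyte medians that differed by 0.43, 0.68 and 0.09 on the log2 scale. Without F3 CD+DHT oocyte 15 the first of these ratios was 0.45, and without oocyte 1 of animal 26 the next was 0.44. Thada had pooled log2 ratios of 0.43, 1.07 and 0.88, but the oocyte medians gave -0.13, 1.03 and -1.38. Without oocyte 7 of animal 22 its ratio in HFHS+Veh was 0.18. In F3 CD+Veh its highest oocyte was at 118 CPM and its median at 4.61 CPM. The oocyte medians of Dennd1a gave log2 ratios of -0.10 in CD+DHT, -1.03 in HFHS+Veh and -2.16 in CD+Veh, but its pooled levels gave 0.01, 0.11 and -0.33. Yap1 had pooled levels of 229 to 360 CPM in F1, 359 to 445 CPM in F2 and 185 to 265 CPM in F3, so F1 and F3 overlapped. Its pooled log2 ratios in F3 against F1 were -0.44 in CD+DHT, -0.44 in HFHS+Veh and -0.14 in CD+Veh. Each was less than the SD between F2 animals, 0.51. Its oocyte medians gave -0.17, -0.53 and -0.71, past that SD in HFHS+Veh and CD+Veh. Krr1 differed least, from 42.4 to 61.9 CPM over all 11 groups. Pooled levels of Tox3 ranged from 149.6 to 225 CPM. Those of Gata4 were 16.8 to 18.3 CPM in F3, 28.9 to 32.1 CPM in F2 and 16.9 to 27.2 CPM in F1. Oocyte medians of Gata4 were lower in F3 than in F1, with log2 ratios of -0.55 in CD+DHT, -0.91 in HFHS+Veh and -0.44 in CD+Veh. Only the ratio in HFHS+Veh was past the SD between F2 animals, 0.57. Oocyte medians of Tox3 gave 0.03, -0.21 and -0.82, past its SD of 0.44 in CD+Veh only. Its pooled log2 ratios were 0.56, 0.03 and 0.03.

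**Figure D5:**
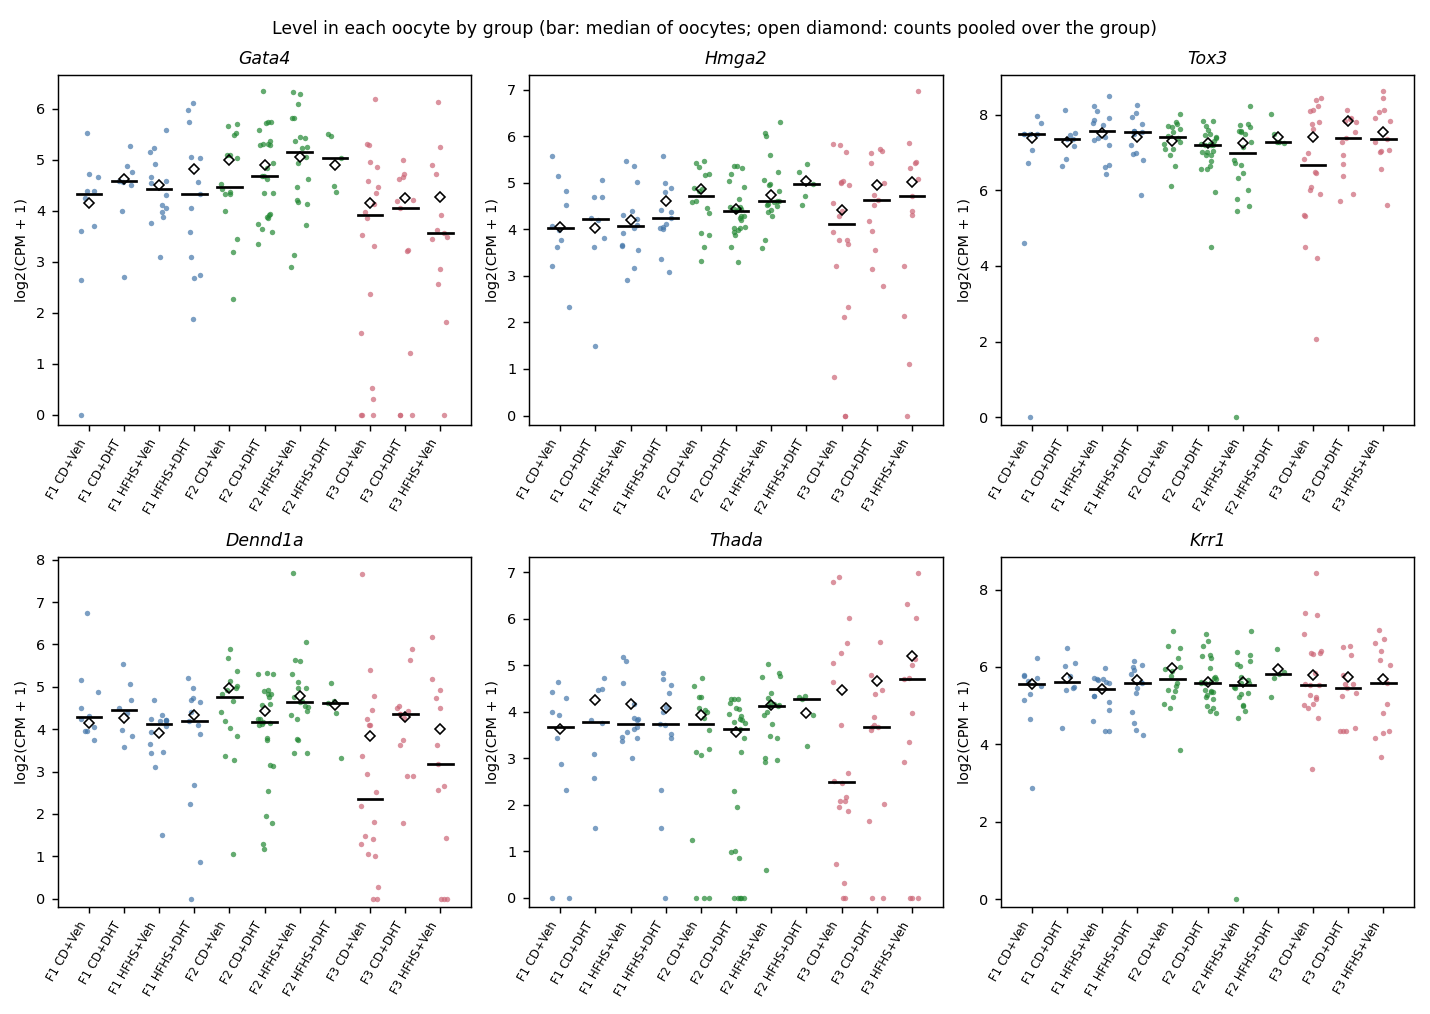
Level of Gata4, Hmga2, Tox3, Dennd1a, Thada and Krr1 in each kept oocyte as log2(CPM + 1), by group, with bars at oocyte medians and open diamonds at pooled levels. The F3 CD+Veh median of Dennd1a (4.12 CPM) and of Thada (4.61 CPM) lies below the pooled level (13.41 and 21.02 CPM).

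One generation step could be tested, since F3 HFHS+Veh names its animals. The 2 F3 animals with kept oocytes were set against 4 F2 animals, in edgeR's quasi-likelihood fit with the other F2 animals. This test was added after the data were seen. Arl14ep was at 27.0 and 31.4 CPM in animals 22 and 26, and at 66.8, 77.1, 201 and 122 CPM in the F2 animals. It fell by a log2 fold of -1.90 (SE 0.65, adjusted p = 0.0405). Yap1 was at 164 and 210 CPM in F3 and at 538, 570, 338 and 313 CPM in F2, and it fell by a log2 fold of -1.02 (SE 0.32, adjusted p = 0.0243). Neither set of animals overlapped the other. These 2 of 10 genes tested stand beside 24.6% of 13314 genes called, 1319 higher and 1958 lower, and a median log2 fold of -0.50 over all genes (-0.35 with DESeq2's size factors), so Yap1 lay 0.52 and Arl14ep 1.397 below that median. With those size factors the edgeR adjusted p was 0.0575 for Arl14ep and 0.0588 for Yap1. Each call also rested on single animals. Arl14ep had adjusted p values of 0.103, 0.0594, 0.223 and 0.152 without animals 10, 19, 22 and 26. Yap1 had 0.0533, 0.0527, 0.206 and 0.0733 without animals 4, 5, 22 and 26. The log2 folds stayed between -2.11 and -1.35 for Arl14ep and between -1.16 and -0.89 for Yap1 with any 1 of the 6 animals left out. Without animal 22, 1660 genes were called.

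Mapre1 had 716 and 777 CPM in the F3 animals and 633, 622, 488 and 642 CPM in the F2 animals, with a log2 fold of 0.52 (SE 0.20, adjusted p = 0.0687), which missed the threshold. Thada (log2 fold 1.23, SE 0.61, adjusted p = 0.161), Gata4 (-0.68, SE 0.38, adjusted p = 0.212), Tox3 (0.47, SE 0.41), Hmga2 (0.38, SE 0.36), Krr1 (0.13, SE 0.36), Dennd1a (-0.57, SE 0.50) and Erbb4 (0.99, SE 1.96) did not pass. Dennd1a was at 6.21 and 25.9 CPM in animals 22 and 26, so its fold was 0.10 without animal 22 and -1.88 (adjusted p = 0.0458) without animal 26. Without the oocytes with contradictory labels, which removes animals 10 and 22 and 3 oocytes of animal 5, Arl14ep had a log2 fold of -1.19 (adjusted p = 0.391) and Yap1 of -1.13 (adjusted p = 0.152), with 1 F3 animal left that is assumed to vary like the others. The F3 animals had 7287 and 6788 genes detected against 8447 to 11460 in the F2 animals, and cumulus marker sums of 3717 and 2847 CPM against 533 to 1097 CPM. The part of these in the result was not tested.

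In the same test the genes on the lists are read against the same 24.6% and the same median log2 fold of -0.50. Their calls are given for the fit with all animals only. Whether they hold with an animal left out is not given here. Of 14 Hippo genes tested, Stk3, the kinase upstream of Yap1, rose (log2 fold 1.28, SE 0.26) and Nf2, an upstream activator of the pathway, fell (-3.09, SE 0.41). Of 8 ErbB genes Egfr (1.78) and Nrg4 (1.20) rose, and of 5 GATA genes Gata3 fell (-1.18). Of 6 let-7 axis genes Lin28a, which blocks let-7 processing, fell (-2.71) and Igf2bp2 rose (0.83). Of 24 processome genes Dcaf13 (1.27) and Nop58 (0.98) rose and Nop14 (-1.68), Imp3 (-2.69), Utp3 (-1.55) and Utp18 (-2.49) fell. Of 9 plus end genes Mapre3, the paralogue of Mapre1, fell (-2.40), of 8 DENN and Rab genes Cltc rose (1.09), and of 3 TOX genes Tox rose (1.20). Of 12 genes near other loci Insr rose (1.996) while Suox (-2.39) and Fancc (-1.35) fell. Of 3 Thada partners, 0 passed.

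Across oocytes the genes varied largely apart. After each group's mean was taken out, the 36 pairs of the 9 genes had Spearman correlations of log2(CPM + 1) from -0.40 to 0.51 with a median of 0.06 over 157 oocytes, which share animals and depth. The strongest were Yap1 with Mapre1 (0.51), Yap1 with Arl14ep (-0.40) and Tox3 with Arl14ep (0.32). Genes detected correlated with Thada at 0.40, with Arl14ep at -0.23 and with Yap1 at 0.10, and gene counts with Thada at 0.30. The cumulus marker sum correlated with Yap1 at -0.24 and with Mapre1 at -0.21, and the share of spike-in counts with Tox3 at -0.24 and with Arl14ep at -0.23. The part of these measures in the values of the genes was not tested.

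The genes most like each were sought among 4548 genes with at least 20 CPM on average. For Yap1 they were 2010107G23Rik, Siah2 and Nup62 (0.67, 0.67 and 0.65), and for Mapre1 Ermp1, Siah2 and Ice1 (0.59, 0.58 and 0.57), so Siah2 stood in both sets. For Arl14ep they were Zbtb21, Spin1 and Ncoa3 (0.65, 0.60 and 0.59). For Tox3 they were Slc43a3, 7420700N18Rik and Fam13c (0.51, 0.50 and 0.50), for Thada Phf8, Tmcc3 and Setd1a (0.48, 0.44 and 0.42), and for Krr1 P4ha1, Hif1a and Ip6k2 (0.47, 0.45 and 0.44). The likeness of Gata4 to Phc2, Ctnnd1 and Fchsd2 (0.43 each), of Dennd1a to 2310061I04Rik, Mtf1 and Gna13 (0.42, 0.42 and 0.41) and of Hmga2 to Atr, Sh3glb1 and Tab3 (0.38, 0.38 and 0.37) was weaker.

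The gene models (GENCODE vM21, build GRCm38, which mm10 denotes) place Arl14ep at chr2:106962527-106974424 and Mapre1 at chr2:153741274-153773310. Yap1 is at chr9:7931999-8004596, Gata4 at chr14:63198922-63271692 and Tox3 at chr8:90247040-90348343. Hmga2 (chr10:120361275-120476469) and Krr1 (chr10:111972664-111988432) share a chromosome, as Dennd1a (chr2:37798991-38287390) does with Arl14ep and Mapre1. Thada is at chr17:84190076-84466205 and Erbb4 at chr1:68032186-69108059. Whether counting used strand is not given in the sources used here, so exons shared with a gene on the opposite strand are uncertain. They are 352 bases (5.91% of exon bases) of Krr1 with Glipr1, 140 bases (2.07%) of Hmga2, 116 bases (1.25%) of Yap1, and 113 bases (0.736%) of Dennd1a with Crb2 and 80 bases (0.521%) with Gm13556. Arl14ep, Mapre1, Tox3, Gata4, Thada and Erbb4 share none with another gene.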

How the data were processed

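The authors deposited 1 table of raw counts, with gene symbols as its lines and the 202 libraries as its columns, and 1 of RPKM. The submitters' processing notes name STAR 2.4.2a, Seurat 2.0 and the build mm10. For the program that counted reads, its annotation and the gene lengths behind RPKM, nothing is given in the sources used here. Other normalised tables by the authors were not used. The 92 ERCC lines and eGFP were left out of library sizes, and 494 repeated lines were summed to 23995 symbols, of which 25 had been turned into dates. Oocytes with at least 100000 gene counts and 4000 genes were kept (157, with 45 left out). No 2 libraries were identical (0 pairs), and a chi-square comparison of each pair of libraries within a group gave at least 2.44 per degree of freedom.

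F2 counts were summed per animal and tested with edgeR 4.0.16 (TMM, filterByExpr, glmQLFit, glmQLFTest, Benjamini-Hochberg adjusted p under 0.05) in R 4.3.3, with DESeq2 1.42.0 and limma 3.58.1 as alternatives. The edgeR script was tested on simulated data. Nothing in the labels says whether animals of 1 group share a litter. F1 and F3 groups were compared as ratios of pooled CPM with exact Poisson 95% intervals and a pseudocount of 1 on log2 scales only. Genes needed a mean of 5 CPM over the groups to count as measured. The genes and lists were chosen with earlier results of these data known. By the rule for names, all 10 orthologues are named, with the 3 genes most like each measured one, and from each list every gene past the edgeR threshold and otherwise up to 4 of the highest RPKM. Alternatives were other scalings, filters, tools, oocyte medians, equal weights and each animal or oocyte left out.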

Additional observations from a re-analysis of the deposited data

Results flagged for a closer look

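In 54 sets of 4 to 10 values (oocytes of a group, or F2 animals), 7 held a highest or lowest value far from the rest on the log2(CPM + 1) scale. Chance flags about 1 in 20 such sets. In F1 CD+Veh, Gata4 was at 0 CPM in oocyte 7, with the other oocytes at 5.22 to 44.8 CPM, and Tox3 was at 0 CPM in oocyte 8, with the others at 23.1 to 249.5 CPM. The same oocyte 8 had 107 CPM of Dennd1a, against 12.5 to 34.7 CPM in the others. Spike-in counts made up 2.66% of the library of oocyte 7 and 4.33% of that of oocyte 8, against 0.27% to 0.49% in the other 8 kept oocytes of the group. Oocyte 8 also had the fewest genes detected (6611, against 7543 to 11902) and the lowest cumulus marker sum (44.8 CPM), and the part of these in its values was not tested. Krr1 was at 6.32 CPM in F1 CD+Veh oocyte 3, with the others at 24.1 to 73.6 CPM. In F1 CD+DHT, Hmga2 was at 1.82 CPM in oocyte 11, with the others at 11.3 to 32.3 CPM. Among the F2 CD+DHT animals, Hmga2 was at 31.4 CPM in animal 7, against 16.8 to 19.7 CPM in the other 4. Among the F2 HFHS+Veh animals, Mapre1 was at 488 CPM in animal 10, whose labels contradict each other, against 622 to 642 CPM in the other 3.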

How the results depend on the processing

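No paired analysis was possible because each F2 animal number occurs in 1 group and the F1 and F3 groups name no matching animals. Arl14ep stayed lower in F3 than in F1 in all 3 lineages under every alternative run, with log2 ratios from -3.80 to -1.73, and Mapre1 stayed higher, from 0.38 to 1.17. The limit of 2000 CPM on cumulus markers leaves out 52 of the 157 kept oocytes. Erbb4 had a count in 36 oocytes, and in 6 after thinning. F3 CD+DHT oocyte 14, with 16359078 gene counts, held 1.04 CPM of Erbb4. In F3 CD+DHT oocyte 15, with 13853000 gene counts, Erbb4 had no count. The part of depth in its detection was not tested further.

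Among the untested ratios, the median over the 9 genes in F3 CD+DHT against CD+Veh was 0.21 and became 0.54 with oocyte medians and 0.64 without the oocytes rich in cumulus RNA. With oocyte medians, F3 against F1 became -0.71 in CD+Veh (from 0.03) and -0.21 in HFHS+Veh (from 0.11). With 1 oocyte left out at a time the median in CD+DHT ran from -0.12 to 0.39 (without F1 CD+DHT oocyte 6). Thada in F3 HFHS+Veh against CD+Veh was -0.33 without the contradictory labels and ran from -0.12 to 1.06 with 1 oocyte left out. Its F3 against F1 ratio in CD+Veh was -1.38 with oocyte medians and -1.55 without the oocytes rich in cumulus RNA.

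In the F2 comparisons DESeq2 called 1 gene each where edgeR called 0, and no orthologue passed under any alternative. Folds near 0 changed sign. In CD+DHT against CD+Veh, leaving out 1 animal gave -0.089 to 0.20 for Yap1, -0.038 to 0.28 for Gata4, -0.28 to 0.14 for Tox3, -0.48 to 0.0032 for Dennd1a and -0.47 to 0.21 for Arl14ep, and limma gave -0.0036 for Mapre1. In CD+DHT against HFHS+Veh, it gave -0.22 to 0.017 for Yap1, -0.37 to 0.0024 for Gata4, -0.31 to 0.26 for Tox3, -0.25 to 0.62 for Arl14ep, -0.22 to 0.38 for Krr1 and -0.0030 to 0.083 for Mapre1. There limma gave 0.45 for Tox3, 0.31 for Krr1 and -0.10 for Mapre1, and without the contradictory labels they were 0.28, 0.45 and -0.010. In HFHS+Veh against CD+Veh, it gave -0.26 to 0.25 for Hmga2 (-0.14 without the contradictory labels), -0.33 to 0.23 for Tox3, -0.084 to 0.40 for Dennd1a, -0.75 to 0.11 for Arl14ep, -0.51 to 0.081 for Krr1 and -0.0036 to 0.18 for Mapre1.

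In F3 against F2 HFHS+Veh, 1864 genes were called without the contradictory labels and 1660 (without animal 22) to 3414 (without animal 10) with 1 animal left out, against 3277. Arl14ep missed the threshold with the stricter oocyte filter (edgeR adjusted p = 0.0586), beside the settings given above. Mapre1 passed with DESeq2's size factors (edgeR adjusted p = 0.0149) and with DESeq2 (adjusted p = 0.000673). Dennd1a passed with limma (adjusted p = 0.0231), and Gata4 without the oocytes rich in cumulus RNA (edgeR adjusted p = 0.0491). Dennd1a ran from -1.88 to 0.10 and Krr1 from -0.033 to 0.58 with 1 animal left out, and Krr1 was -0.0045 with the stricter filter and -0.10 without the oocytes rich in cumulus RNA. Hmga2 was -0.83 with limma. Erbb4 was -6.06 without the contradictory labels, -5.73 without the oocytes rich in cumulus RNA and -5.72 (without animal 22) to 2.01 with 1 animal left out. Each of the negative values leaves animal 26, with 0 counts, as the only F3 animal, so these values depend on the prior count. The causes of the other changes were not tested.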
